A study of Zea mays with 13 samples.

Results

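The MIR167 genes of maize (Zea mays) encode the precursors of the microRNA miR167. Every feature of the count tables whose ID is zma-MIR167 followed by a letter was taken, which gave 9 genes, MIR167a to MIR167h and MIR167j, of 43943 features in all, 154 of them microRNA genes. MIR167i, which the reference table also names, was not analysed here. Histone marks were profiled by ChIP-seq, the sequencing of DNA pulled down with an antibody to a mark, in immature wrapped leaves, which are young leaves still enclosed by older ones, of the inbred B73. WST7 leaves came from plants given 25% of disposable water for 10 days and then left to recover for 7 days, and NST7 leaves from control plants given 75% and sampled after the same 7 days. WST0 and NST0 leaves were taken from drought-stressed (25%) and well-watered (75%) plants at the end of the 10 days, and all plants received water of 0.1 dS/m salt concentration. Each of H3K4me3, H3K9ac and H3K27me3 had 1 library in each of the 4 groups, and 1 library of whole chromatin from well-watered plants after 10 days served all groups. Whether a library pooled several plants is not given in the sources used here.

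MicroRNA genes are transcribed by RNA polymerase II into a long primary transcript, in which a hairpin is cut by DICER-LIKE enzymes to release the mature microRNA. In Arabidopsis, miR167 directs cleavage of the transcripts of the auxin response factors ARF6 and ARF8, which activate auxin-induced genes. H3K4me3 and H3K9ac accompany transcribed promoters, whereas H3K27me3 is the mark that Polycomb proteins leave at repressed genes.

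The H3K4me3 libraries held 2793985 to 6876219 counts over features, the H3K9ac libraries 1152884 to 1856159 and the H3K27me3 libraries 1612935 to 1969485. At the MIR167 genes a gene had between 5 and 72 H3K4me3 counts in a library. For H3K9ac this was 5 to 38, and for H3K27me3 0 to 12. Scaled counts are counts per 1e+06 after TMM scaling within a mark. Enrichment is their log2 ratio to whole-chromatin counts in the 1 kb window at the transcription start site, where the 9 genes held 53 to 79 whole-chromatin counts, and intervals are 95% intervals that cover counting error only. Where the tables place the start of a microRNA gene is not given in the sources used here. NST0 stood apart for the active marks: its 25th percentile of H3K4me3 enrichment over all features was -3.45, against -2.82 to -2.74 in the other 3 libraries, and that of H3K9ac was -1.24, against -0.94 to -0.89. In whole leaves, fewer cells with a mark and less of the mark per cell cannot be told apart. Reads from stretches that MIR167 copies share may have been assigned to any of them, since the treatment of such reads is not given in the sources used here.

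H3K4me3 divided the family. MIR167e, MIR167b, MIR167h and MIR167d carried most of it, and MIR167g, MIR167c, MIR167a, MIR167j and MIR167f carried little. MIR167e had 11.9 scaled counts in WST7, 13.2 in NST7, 8.33 in WST0 and 9.67 in NST0. MIR167b had 10.6, 8.94, 8.69 and 9.67 in WST7, NST7, WST0 and NST0, and MIR167h had 9.29, 8.94, 8.33 and 7.56 in that order. All 12 of these values were above every value of the 5 weak genes. MIR167d, with 7.46 in WST7, 9.19 in NST7, 4.34 in WST0 and 6.65 in NST0, dipped below the strongest values of MIR167g in WST0 only. MIR167g had 5.47 in WST7, 4.72 in NST7, 2.53 in WST0 and 2.72 in NST0. At the low end, MIR167f had 2.49, 2.48, 1.81 and 0.907 in WST7, NST7, WST0 and NST0, the last of these from 6 reads. The values of MIR167c, MIR167a and MIR167j lay between 1.24 and 3.72.

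Summing the 4 libraries gives firmer levels. Relative to whole chromatin, where 1 would be the average of the library, MIR167e stood at 0.497 (0.376 to 0.665), MIR167b at 0.389 (0.296 to 0.514), MIR167h at 0.328 (0.25 to 0.435) and MIR167d at 0.282 (0.212 to 0.377). MIR167g followed at 0.161 (0.116 to 0.225) and MIR167c at 0.118 (0.0803 to 0.172). MIR167j had 0.0949 (0.0592 to 0.15), MIR167a 0.0948 (0.0627 to 0.142) and MIR167f 0.0745 (0.0486 to 0.112). Neighbours in this order had overlapping intervals throughout, while the intervals of MIR167e, MIR167b and MIR167h lay wholly above those of the 5 weak genes. The count window of the mark libraries is not given, and when whole chromatin was counted over whole genes instead the same 4 genes led, from 13.3 (6.88 to 29.5) at MIR167e through 8.66 (4.43 to 19.3) at MIR167d and 7.58 (4.41 to 14.1) at MIR167b to 7.17 (4.08 to 13.7) at MIR167h. The weak genes then lay between 1.45 (0.764 to 2.91) at MIR167f and 2.88 (1.45 to 6.36) at MIR167c, and some intervals of weak and strong genes overlapped. The same 4 genes thus had the highest values with either window, but both values rest on the same H3K4me3 counts. Their place against the genome turned with the window: the median of all features was 0.692 with the 1 kb window, above all 9 genes, and 0.93 with whole genes, below all 9. The median of the other microRNA genes turned likewise, from 0.127 to 4.08. Median whole-chromatin counts were 68 at microRNA genes and 66 at gene models in the 1 kb window, and 9 and 143 over whole genes. Values against whole genes may thus be raised at microRNA genes as a class. They do not place the family above the genome.

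**Figure D1:**
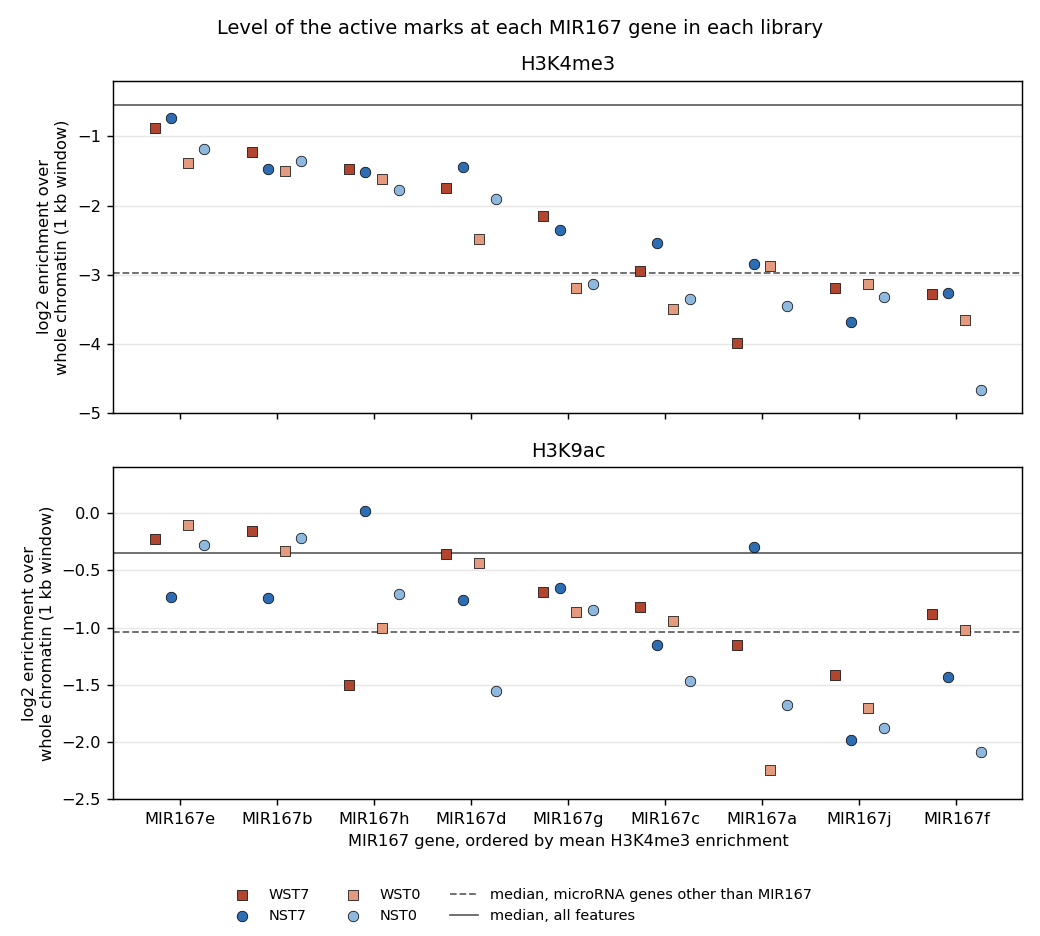
Log2 enrichment over whole chromatin (y axis) of H3K4me3 (upper panel) and H3K9ac (lower panel) at each MIR167 gene (x axis), with 1 point per library: squares are drought-stressed and circles well-watered plants, dark colours T7 and pale colours T0. Lines mark the median of the mean enrichment over the other microRNA genes (dashed) and over all features (solid). For H3K4me3, MIR167e, MIR167b, MIR167h and MIR167d lie above the dashed line in every library, and every gene lies below the solid line at -0.54.

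Calls of marked genes were made with the 1 kb window. To be called marked, a gene had to exceed the 25th percentile of enrichment 2-fold or more in each of the 4 libraries. By this definition 3 of the 9 MIR167 genes, MIR167b, MIR167e and MIR167h, carried H3K4me3, against 33 of the 145 other microRNA genes (22.8%) and 60% of all features. MIR167d met the threshold in WST7, NST7 and NST0 and missed it in WST0, where its enrichment was -2.49, from 12 counts, against a threshold of -1.74. MIR167h passed there with the least room, at -1.61, from 23 counts. WST0 was the shallowest H3K4me3 library, and the calls take no account of counting error. Over the 4 libraries summed, the intervals of MIR167h and MIR167d overlapped. With a 3-fold threshold 0 of the 9 were marked, against 54.8% of all features. With whole-gene counts of whole chromatin MIR167g alone could be assessed, and it was marked by H3K4me3, as were 53.3% of features. With the 1 kb window the mean enrichment of MIR167e, -1.04, lay at percentile 44.5 of all features, but 82.8% of the other microRNA genes were below it. MIR167f, at -3.72, lay at percentile 10.5 and above 11% of the other microRNA genes.

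H3K9ac had a similar order with less spread. MIR167b had 21.9 scaled counts in WST7, 14.6 in NST7, 19.6 in WST0 and 21.2 in NST0, and MIR167e had 18.4, 12.9, 20.3 and 17.9 in that order. MIR167j, the lowest, had 6.14 in WST7, 4.05 in NST7, 5.07 in WST0 and 4.47 in NST0. Values of both strong genes were above all of those of MIR167j. Over the 4 libraries summed, MIR167e stood at 0.802 (0.583 to 1.11) and MIR167b at 0.784 (0.58 to 1.06) of whole chromatin, MIR167h, MIR167d and MIR167g between 0.574 and 0.606, MIR167c at 0.454 (0.314 to 0.653), and MIR167a, MIR167f and MIR167j between 0.281 and 0.407. None of the 9 genes (a count of 0) was marked by H3K9ac, against 15 of the 145 other microRNA genes (10.3%) and 31.1% of all features. With whole genes as background the 9 genes lay between 7.51 at MIR167f and 21.4 at MIR167e, against a median of 1.30 for all features, where the 1 kb window gave 0.787. The other microRNA genes had medians of 14.9 with whole genes and 0.491 with the 1 kb window. MIR167b alone crossed the threshold in 1 library, NST0, with -0.22 against -0.24. Across the 9 genes the mean enrichments of both marks had a Pearson correlation of 0.89 and a Spearman correlation of 0.92. Across the 145 other microRNA genes these were 0.87 and 0.78. Both marks are divided by the same whole-chromatin counts in these ratios, and the genes share libraries.

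**Figure D2:**
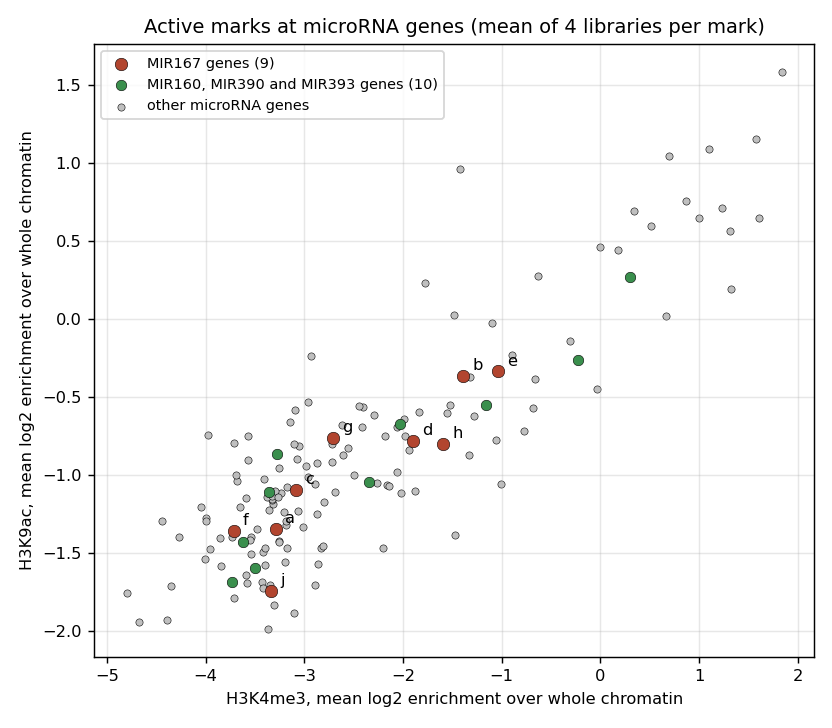
Mean log2 enrichment over whole chromatin of H3K4me3 (x axis) and of H3K9ac (y axis) for the 154 microRNA genes, each mean taken over the 4 libraries of the mark, with MIR167 genes in red and lettered, MIR160, MIR390 and MIR393 genes in green and the others in grey. MIR167b and MIR167e lie highest of the family on both axes, with MIR167h and MIR167d next for H3K4me3, and the whole family lies below the strongly marked microRNA genes at the upper right.

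With the 1 kb window the family median of mean enrichment was -2.71 for H3K4me3, against -2.97 for the other microRNA genes and -0.54 for all features. For H3K9ac it was -0.80, against -1.04 and -0.35. Sums gave the other order: the 9 genes together reached 0.231 (0.209 to 0.256) of whole chromatin for H3K4me3 and 0.55 (0.493 to 0.614) for H3K9ac, and the 145 others 0.378 (0.369 to 0.387) and 0.632 (0.615 to 0.649). With whole genes as background the sums were also lower for the 9 genes, at 4.92 for H3K4me3 and 11.7 for H3K9ac, against 10.5 and 17.5 for the others.

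Other microRNAs also act in the auxin pathway. In Arabidopsis, miR160 acts on transcripts of the repressing factors ARF10, ARF16 and ARF17, miR390 starts the production of small RNAs against ARF2, ARF3 and ARF4, and miR393 acts on the TIR1 and AFB auxin receptors. The tables held 10 such genes, and 3 of them were marked by H3K4me3 and 0 by H3K9ac. The shares were 60% and 31.1% of all features, and 22.8% and 10.3% of the microRNA genes other than MIR167. Their median enrichment was -2.81 for H3K4me3 and -0.95 for H3K9ac. Summed, the MIR167 genes stood at 0.231 (0.209 to 0.256) of whole chromatin for H3K4me3, below the 0.353 (0.322 to 0.387) of these 10 genes, and at 0.55 (0.493 to 0.614) for H3K9ac, against 0.588 (0.529 to 0.654). MIR393a had the highest, with 0.30 for H3K4me3 and 0.27 for H3K9ac, above every MIR167 gene, and MIR160c the lowest, with -3.73 and -1.68. The microRNA genes closest to the family median over the 8 active-mark libraries were MIR393c, MIR171b and MIR399e, with root mean square differences of 0.33, 0.37 and 0.40 log2 units. Within the family MIR167b and MIR167e were each other's nearest gene at 0.31, MIR167c and MIR167g at 0.43, and MIR167e and MIR167f were the farthest apart at 2.08.

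Annotation placed most members within the span of longer genes, compared by start and end only, without strand or exons. In the RefSeq annotation of the later assembly Zm-B73-REFERENCE-NAM-5.0, used for names and neighbours only, 8 of the 9 genes lay within a long non-coding RNA gene, against 62 (43.1%) of the 144 other microRNA genes found there. MIR167f, the gene with the least H3K4me3, was the exception, but the other weak genes also lay inside such genes. Their mean H3K4me3 enrichments were -2.71 at MIR167g, -3.09 at MIR167c, -3.29 at MIR167a and -3.34 at MIR167j. Among the other microRNA genes the median H3K4me3 enrichment was -2.10 inside and -3.18 outside such genes, and that of H3K9ac -0.79 and -1.14. The long non-coding RNA genes around MIR167a (LOC112679201) and MIR167g (LOC100381792) were direct neighbours. MIR167b also lay within a protein-coding gene, LOC100276358, so that reads there cannot be told apart from those of that gene.

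H3K27me3 counts were few and were highest at MIR167a, MIR167g and MIR167d. MIR167a had 11 counts in WST7, 4 in NST7, 12 in WST0 and 9 in NST0, MIR167g had 12, 6, 7 and 8, and MIR167d had 8, 3, 10 and 7 in the same order. MIR167h, among the strongest for H3K4me3, had 4, 0, 1 and 1. The 36 counts of MIR167a over 4 libraries were reached by 2 of the 145 other microRNA genes, the 33 of MIR167g by 5 and the 28 of MIR167d by 7, where the median of the others was 7. Whole-gene counts of whole chromatin, 7 to 20 per gene, were the first background for this mark. Relative to these, MIR167d stood at 4.83 (2.22 to 11.6), MIR167a at 4.66 (2.37 to 9.84), MIR167c at 2.95 (1.31 to 7.11) and MIR167g at 2.56 (1.43 to 4.71). The intervals of the other 5 genes included 1, and that of MIR167h, at 0.717 (0.223 to 2.02), lay wholly below those of MIR167d and MIR167a. The median was 0.964 for all features and 1.5 for the other microRNA genes, a value inside the intervals of MIR167c and MIR167g. With the 1 kb window the level turned: MIR167a stood at 0.229 (0.148 to 0.348), MIR167g at 0.19 (0.122 to 0.29), MIR167d at 0.157 (0.0982 to 0.245) and MIR167c at 0.121 (0.0686 to 0.203), all below the median of 0.716 for all features and above the 0.048 of the other microRNA genes. These 4 genes had the highest values with either window, but both values rest on the same H3K27me3 counts. MIR167g alone had the 20 whole-gene counts of whole chromatin needed for a call and was marked, as were 10.7% of all features, while with the 1 kb window 0 of 9 were marked, against 46% of features. The 9 genes together stood at 2.33 (1.82 to 3) with whole genes and 0.11 (0.0917 to 0.13) with the 1 kb window, and the other microRNA genes at 1.85 (1.71 to 1.99) and 0.0666 (0.0631 to 0.0703). With whole genes H3K4me3 of the family stood at 4.92 and H3K27me3 at 2.33, and with the 1 kb window at 0.231 and 0.11. Median whole-chromatin counts over whole genes were 9 at microRNA genes and 143 at gene models. In the 1 kb window they were 68 and 66. The WST7 medians at the other microRNA genes and at gene models were 2 and 29 for H3K27me3, and 23 and 84 for H3K4me3. H3K4me3 and H3K27me3 may have been counted over unlike windows, so their levels cannot be ranked against each other. Over the 9 genes, levels of both marks had a Pearson correlation of -0.26 and a Spearman correlation of -0.05 with whole genes, and of -0.39 and -0.33 with the 1 kb window, each pair of levels being divided by the same whole-chromatin counts. MIR167b and MIR167h were high within the family for H3K4me3 and low for H3K27me3, MIR167a was the reverse, and MIR167d was among the leading 4 for both.

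**Figure D3:**
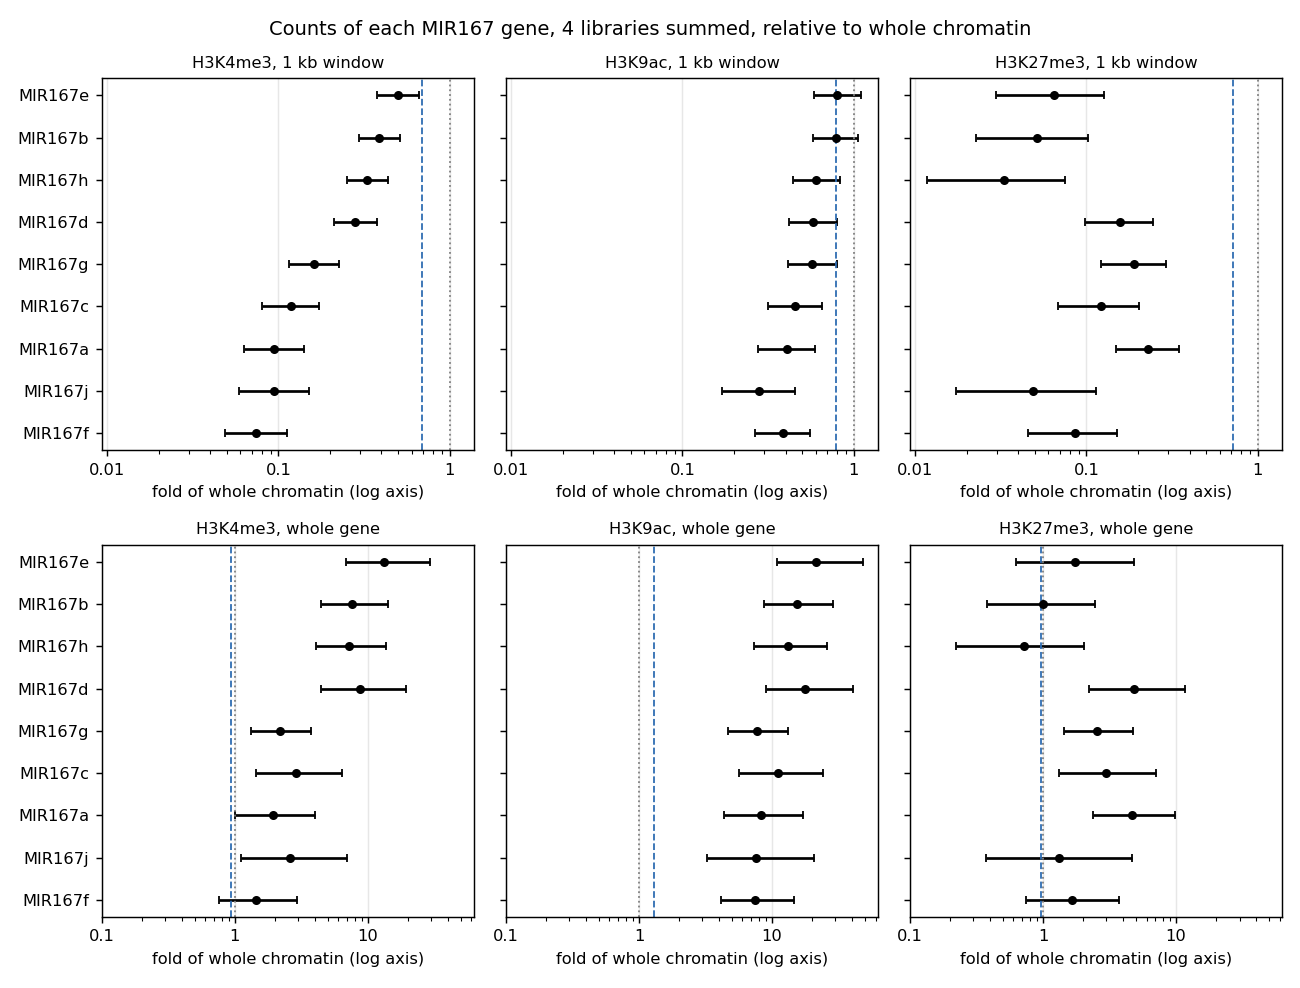
Counts of each MIR167 gene (y axis) summed over the 4 libraries of a mark, as a fold of the whole-chromatin count (x axis, log scale), with 95% intervals covering counting error, against the 1 kb window (upper row) and against whole genes (lower row). Dotted lines are the library average and dashed blue lines the median of all features: for H3K4me3 all 9 genes lie below the median with the 1 kb window (0.692) and above it with whole genes (0.93), with MIR167e, MIR167b, MIR167h and MIR167d leading in both rows.

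Drought before recovery was assessed by WST0 over NST0. With 1 library per group there is no test of the groups. Genes were counted that differed at least 1.5-fold with an exact counting interval of 0.1% error rate leaving out no change, among features with at least 40 counts over the libraries of the mark, which 7 MIR167 genes passed for H3K4me3 (all but MIR167f and MIR167j) and 8 for H3K9ac (all but MIR167j). For H3K4me3, 0 of the 7 met this rule, where 1.97% of all tested features did, and the median log2 ratio was -0.14, against 0.01 for all features. This median changed sign, to 0.07, with a prior of 2 counts. Among these 7, MIR167d had the lowest ratio, with 12 counts in WST0 and 44 in NST0 and a log2 ratio of -0.57 (-1.67 to 0.33). MIR167a had the highest, with 8 and 13 counts and a ratio of 0.59 (-0.92 to 1.94). The 9 genes summed to 40.5 scaled counts in WST0 and 42.9 in NST0, a log2 ratio of -0.08 (-0.41 to 0.24).

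For H3K9ac at the same time, 0 of the 8 met the rule, against 1.27% of features, and the median ratio was 0.09, against 0.02. MIR167d had 29 counts in WST0 and 15 in NST0, a log2 ratio of 1.11 (0.19 to 2.14), the only one of the 8 with a 95% interval leaving out no change, where 13.1% of all tested features had such an interval. This ratio rests on NST0 and fell to 0.69 with scaling on background features and 0.86 with the trend on enrichment removed. Either shift was larger than the distance of the interval from no change. H3K4me3 at MIR167d had the opposite sign. MIR167f had 19 against 10 counts and 1.07 (-0.07 to 2.38), and MIR167b, MIR167e and MIR167g lay between -0.11 and 0.18. The sum over the 9 genes was 117 in WST0 and 101 in NST0, a log2 ratio of 0.21 (-0.09 to 0.52), and that over the other microRNA genes was 0.15 (0.08 to 0.22). Scaling on background features, the 25% with the lowest enrichment, moved the median of all features by -0.77 for H3K4me3 and -0.42 for H3K9ac, and the sums over the 9 genes became -0.85 and -0.21.

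**Figure D4:**
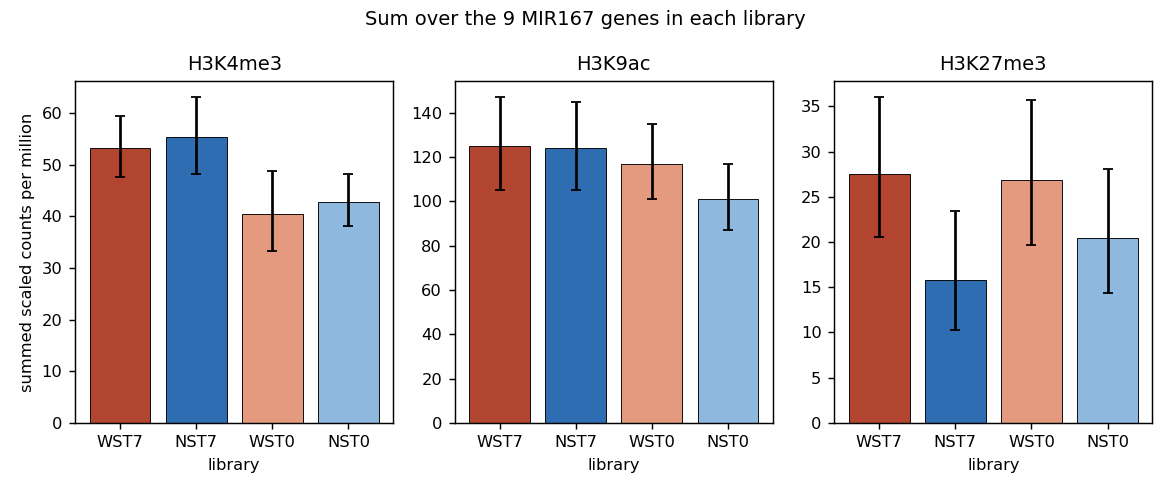
Scaled counts summed over the 9 MIR167 genes (y axis) in each library (x axis), with bars from 0 and 95% Poisson intervals, for H3K4me3, H3K9ac and H3K27me3. For H3K4me3 both T7 libraries, at 53.2 and 55.4, stand above both T0 libraries, at 40.5 and 42.9, and for H3K27me3 NST7 is the lowest at 15.8.

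After recovery, WST7 over NST7 gave 0 of 7 genes past the rule for H3K4me3, against 0.191% of features, and 0 of 8 for H3K9ac, against 0.194%. The median log2 ratios were -0.14 for H3K4me3 and 0.37 for H3K9ac, against -0.01 and 0.00 for all features. The sums were 53.2 in WST7 and 55.4 in NST7 for H3K4me3 (log2 ratio -0.06, -0.31 to 0.20), and 125 and 124 for H3K9ac (0.01, -0.33 to 0.35). MIR167h stood out: its H3K9ac counts were 10 in WST7 and 32 in NST7, or 8.78 and 25.9 scaled counts, a log2 ratio of -1.51 (-2.75 to -0.50). It was the only one of the 8 with a 95% interval leaving out no change, where 5.72% of features had one. At T0 the gene had 12.7 in WST0 and 15.6 in NST0, so the NST7 value was the highest of its 4 and the WST7 value the lowest, and its H3K4me3 was 9.29 in WST7 and 8.94 in NST7. MIR167a lay lower in WST7 for both marks, with 0.24 as the upper bound for H3K4me3 (-1.14, from -2.66) and 0.22 for H3K9ac (-0.85, from -2.07), so both intervals included no change. H3K4me3 intervals leaving out no change were found at 0 of 7 genes in either drought comparison, where 15.4% of features had one at T0 and 7.55% at T7.

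H3K27me3 summed over the 9 genes to 53 counts in WST7 and 25 in NST7, or 27.5 and 15.8 scaled counts, a log2 ratio of 0.80 (0.09 to 1.55). The other microRNA genes moved the same way by 0.28 (0.06 to 0.51). NST7 had the lowest sum of the 9 genes. Their log2 ratio was -0.37 (-1.16 to 0.40) in NST7 over NST0 and 0.04 (-0.56 to 0.64) in WST7 over WST0. In the same order the other microRNA genes had -0.44 (-0.66 to -0.22) and -0.09 (-0.29 to 0.12). None of the 9 genes (a count of 0) reached the 40 counts needed for the rule, and the WST0 and NST0 sums of 47 and 37 gave 0.39 (-0.26 to 1.06). Over all features 144 genes were higher and 44 lower in WST7 over NST7, and with the trend of the ratio on enrichment removed 28 and 34. In NST7 over NST0, 33 were higher and 225 lower, and with that trend removed 30 and 52.

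Over time, most MIR167 genes had higher H3K4me3 values at T7, while 0 of the 7 tested genes met the rule of size and the values in well-watered plants turned with scaling on background features. In well-watered plants (NST7 over NST0) 6 of 7 tested genes had a ratio above 0, with a median of 0.47. Of all features 50.1% were above 0, with a median of 0.00, and of the other microRNA genes 72.5%, with a median of 0.21. In previously stressed plants (WST7 over WST0) 6 of 7 were again above 0, with a median of 0.50. Of all features 47.4% were above 0, with a median of -0.02, and of the other microRNA genes 64.2%, with a median of 0.20. These comparisons share no library with each other, but each shares 1 with both drought comparisons. None of the 7 (a count of 0) met the rule in either, against 3.05% and 2.26% of features, nor did an interval leave out no change at any of them, against 22.2% and 16.3%. The sums over the 9 genes were 55.4 in NST7 and 42.9 in NST0, a log2 ratio of 0.37 (0.11 to 0.62), and 53.2 in WST7 and 40.5 in WST0, a ratio of 0.39 (0.08 to 0.72). The other microRNA genes had 0.15 (0.10 to 0.21) and 0.15 (0.09 to 0.21). MIR167g had a log2 ratio of 0.79 (-0.22 to 1.81) in NST7 over NST0 and 1.03 (-0.09 to 2.53) in WST7 over WST0. In the same order MIR167c had 0.81 and 0.54, MIR167d 0.47 and 0.74, MIR167e 0.45 and 0.50, and MIR167h 0.25 and 0.14. The exceptions were MIR167a, with 0.60 and -1.13, and MIR167b, with -0.11 and 0.27.

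The difference in well-watered plants, which rests on NST0, moved with the scaling. With the trend of the ratio on enrichment removed, the median of the 7 genes was 0.16 in well-watered plants and 0.52 in stressed plants. Scaling on background features moved the median of all features by -0.88 and turned the well-watered sum to -0.52. Then 0 of the 7 genes were above 0 in well-watered plants, with a median of -0.42, against 7% of features. In stressed plants 6 of 7 were above 0 with this scaling, with a median of 0.38, against 33.4% of features, and the sum was 0.27, where this scaling moved the median of all features by -0.12.

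For H3K9ac, 6 of 8 genes had a ratio above 0 in each time comparison, against 51% and 50.9% of features, with medians of 0.49 in NST7 over NST0 and 0.13 in WST7 over WST0. With the trend on enrichment removed, 4 of 8 were above 0 in NST7 over NST0, with a median of 0.10, and with scaling on background features also 4 of 8, with a median of 0.04. None of the 8 (a count of 0) met the rule, against 1.44% of features in NST7 over NST0 and 0.308% in WST7 over WST0. The sums were 124 in NST7 and 101 in NST0 (log2 ratio 0.29, -0.03 to 0.61), and 125 in WST7 and 117 in WST0 (0.09, -0.24 to 0.41). MIR167a had 22 counts in NST7 and 12 in NST0, a ratio of 1.38 (0.33 to 2.56), the only interval of the 8 leaving out no change, where 11.8% of features had one. This ratio fell to 0.93 with scaling on background features and 0.97 with the trend on enrichment removed. Either shift was larger than the distance of the interval from no change. The ratio of MIR167a in stressed plants was 1.09 (-0.38 to 2.73), and there 0 of the 8 intervals left out no change, against 6.84% of features. MIR167b had ratios of -0.52 in NST7 over NST0 and 0.17 in WST7 over WST0, and MIR167e of -0.44 and -0.13. In all, 3 of the 60 intervals of tested genes left out no change with TMM scaling, against 12.1% over all features. These were 0 of 28 for H3K4me3, against 15.4%, and 3 of 32 for H3K9ac, against 9.36%, each at another gene. Among the other microRNA genes the shares in the 4 comparisons were 10.1% to 14.7% for H3K4me3 and 2.33% to 7.75% for H3K9ac. Such shares depend on depth: the median H3K4me3 count in NST0 was 18 at the MIR167 genes and 94 at gene models.

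**Figure D5:**
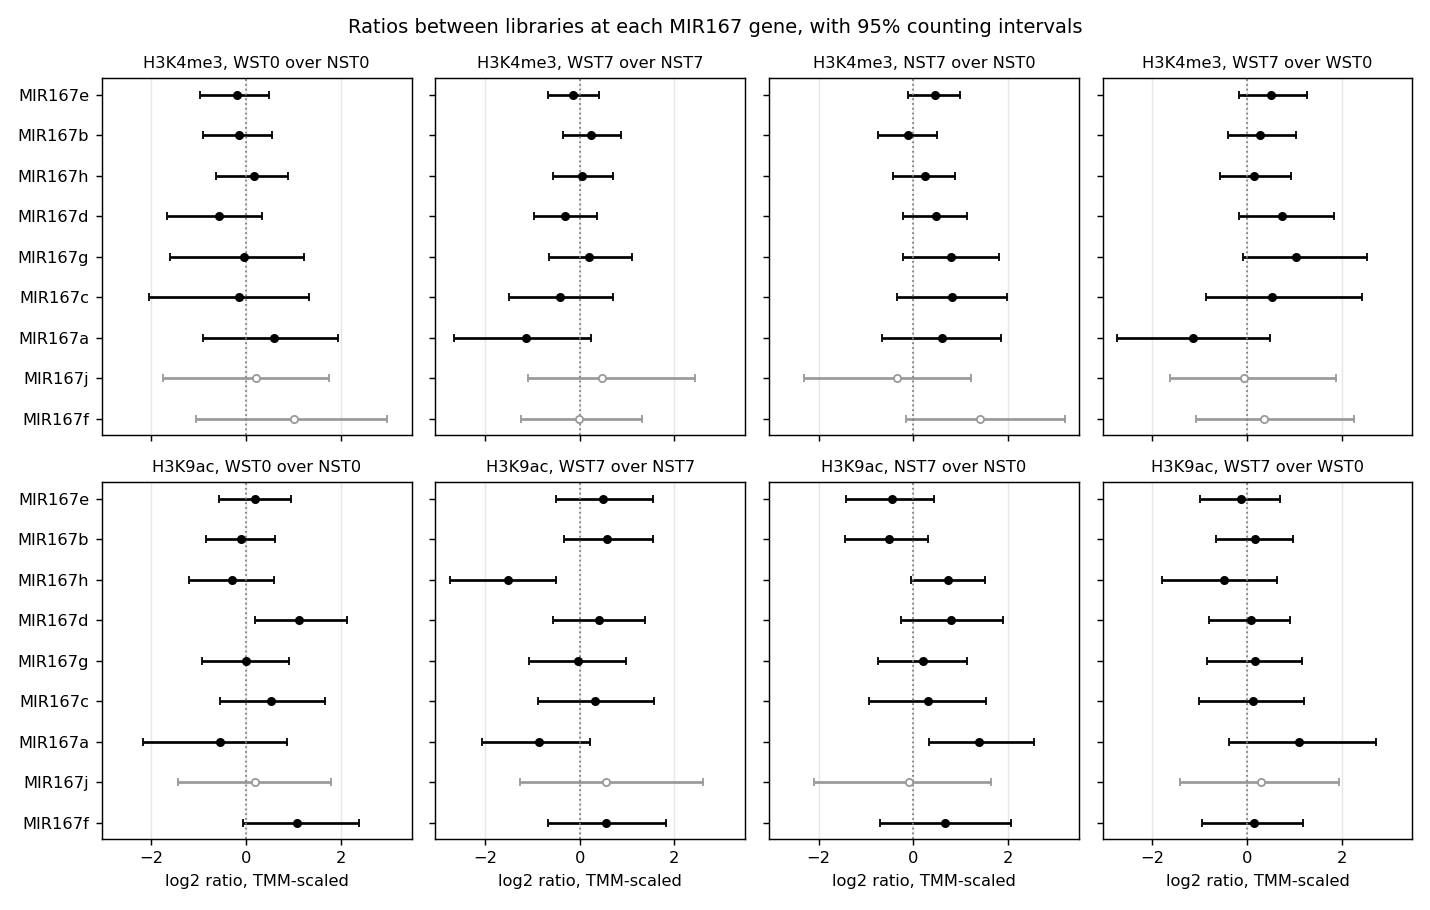
Log2 ratios of scaled counts (x axis) at each MIR167 gene (y axis) in the 4 comparisons, for H3K4me3 (upper row) and H3K9ac (lower row), with 95% intervals covering counting error. Open grey points are genes under 40 counts over the 4 libraries. With TMM scaling, intervals clear of 0 are those of H3K9ac at MIR167d in WST0 over NST0 (1.11), at MIR167h in WST7 over NST7 (-1.51) and at MIR167a in NST7 over NST0 (1.38).

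A test with residual spread was possible by fitting the 4 libraries of a mark together with additive terms for watering and time, adjusted over all tested features (edgeR quasi-likelihood test). The fit leaves 1 residual degree of freedom per feature, with the spread moderated over features. That residual is the interaction, so a watering effect that differs between T0 and T7 counts as error. The p-values measure changes against this departure from additive effects only, not against spread between replicate libraries. For watering, 0 of the 7 MIR167 genes were called for H3K4me3 (0.0028% of features called, 0 of 7 at an unadjusted p under 0.05, against 6.62%). For H3K9ac 0 of 8 were called (0.00242% of features), with 2 at an unadjusted p under 0.05 (4.01% of features). These were MIR167h, with a log2 change of -0.86 ± 0.38 (SE; edgeR, adjusted p = 1), lower in stressed plants at both times, and MIR167d, with 0.77 ± 0.39 (SE; edgeR, adjusted p = 1), higher at both times. DESeq2 called 0 of them, and 0 at an unadjusted p under 0.05.

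For time, edgeR called 0 of 7 genes for H3K4me3 (3.9% of features called), and MIR167g was the 1 gene at an unadjusted p under 0.05, as were 16.5% of features, with a log2 change of 0.92 ± 0.44 (SE; edgeR, adjusted p = 0.282). MIR167d had 0.58 ± 0.30 and MIR167e 0.47 ± 0.24, each with an adjusted p of 0.32 in edgeR. For H3K9ac 0 of 8 were called (0% of features), and MIR167a was the 1 gene at an unadjusted p under 0.05 (4.54% of features), with 1.28 ± 0.51 (SE; edgeR, adjusted p = 0.991). DESeq2 called 0 genes for either mark, and 0 at an unadjusted p under 0.05. Of the MIR160, MIR390 and MIR393 genes, edgeR called 0 of 7 for H3K4me3 and 0 of 9 for H3K9ac in either term, and 0 met the rule of size in the 4 comparisons. At an unadjusted p under 0.05 they were 2 of 7 for watering and 1 of 7 for time with H3K4me3, and 0 of 9 and 1 of 9 with H3K9ac, and DESeq2 called 0. Their median fitted log2 changes over time were 0.38 for H3K4me3 and -0.08 for H3K9ac, and those of the MIR167 genes 0.47 and 0.23.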

How the data were processed

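Raw read counts per feature, not normalized, were deposited by the authors, with 4 libraries for each mark and 2 columns of whole chromatin (1 kb window at the start site, whole gene), per the file headers. CASAVA 1.8, Bowtie2 and B73 RefGen_v4 are named in the submitters' processing notes. No counting program, count window of the marks or duplicate removal is named in the sources used here. The 1 kb window as background for the active marks is an assumption.

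The members and lists were chosen with earlier results of these data known. Counts were scaled by TMM over features with at least 40 counts. Log2 ratios carry a prior of 0.5 counts, so that single ratios differ slightly from those of sums, which carry none. Intervals are exact conditional binomial (Clopper-Pearson) intervals for ratios and exact Poisson intervals for sums. They cover counting error only, since each group had 1 library. Reads are not known to be independent molecules, so the intervals may be too narrow even for counting error. Enrichment needed 20 whole-chromatin counts. edgeR 4.0.16 (limma 3.58.1, R 4.3.3) fitted the additive model with Benjamini-Hochberg adjustment at 0.05, and DESeq2 1.42.0 was the alternative. Every MIR167 gene is named. Genes of the auxin list are named if past a threshold or at either end of the list, and like genes by the root mean square difference. Alternatives were other scalings (total counts, DESeq2 size factors, background features), removal of a loess trend of the ratio on enrichment, other filters and priors, and the other whole-chromatin column. Functions were tested on simulated data, with changes placed only in features of at least 200 counts. Among the MIR167 genes only MIR167e reached this, for H3K4me3, so recovery at lower counts was not tested. All 9 genes matched RefSeq names. Columns of per-sample values left unused numbered 0.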

Additional observations from a re-analysis of the deposited data

How the results depend on the processing

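Of 132 recomputed counts and sums 12 moved past the limits set for them, and of 324 single values of tested genes 5 moved, all H3K4me3 ratios over NST0 under scaling on background features. Filters cannot change a single ratio, and 0 MIR167 genes were tested by the rule of size for H3K27me3, so such repeats are left out of these totals. That scaling gave 1 gene past the rule of size for H3K4me3 in NST7 over NST0, MIR167b (lower), where the main value was 0. It called 62.2% of all features lower there, so that 1 of 7 was under the general share. It gave sums of -0.52 there (a turned sign) and -0.85 in WST0 over NST0, and -0.16 and -0.21 for H3K9ac in the same comparisons. The cause was not tested. The scalings of the sums were added after seeing the data. The other whole-chromatin column left 1 gene measurable for the active marks, MIR167g, which was then marked by H3K4me3 and by H3K9ac (1 gene each, against 3 and 0; 53.3% and 37.9% of features), and gave 0 genes marked by H3K27me3, against 1 (46% of features). With a 3-fold threshold 0 genes were marked by H3K4me3 (54.8% of features) and 0 by H3K27me3 (5.57%). A minimum of 50 whole-chromatin counts left 0 genes for H3K27me3, and with no minimum 4 of 9 were marked, MIR167a, MIR167c, MIR167d and MIR167g (11.5% of features). A filter of 200 counts left 1 gene for H3K4me3, MIR167e, and 0 for the others, so it could not be run there. No paired analysis was possible because each group had 1 library. Leaving out a library was not run, as the additive fit would keep no residual degree of freedom. At 5 to 72 counts per gene, depth limits what could be seen: a 95% interval of MIR167g for H3K4me3 in WST7 over WST0 ran from -0.09 to 2.53.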
